A study of Mus musculus with 8 samples.

Results

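The linker histone H1 genes were followed in MDSCs (myeloid-derived suppressor cells) of the mouse, a mixed population of immature myeloid cells able to dampen T cell responses. The members are the 7 genes H1f0, H1fx, Hist1h1a, Hist1h1b, Hist1h1c, Hist1h1d and Hist1h1e, named as in GRCm38-era annotation, and they are 7 of the 26930 genes in the count table. They were found by matching these symbols to the Ensembl identifiers of the table, and all 7 were present. Poly(A) RNA was sequenced from 8 libraries. The cells came from C57BL/6 bone marrow grown in the cytokines IL-6 and GM-CSF, each at 40 ng/ml, and were moved to medium conditioned by TRAMP-C1 cells, a mouse prostate tumour line, on day 4. All 8 libraries share this culture, which the labels describe as giving senescent-like cells. The untreated group holds 4 libraries with no drug. The treated group holds 4 libraries from cells given Romidepsin at 0.5 µM for 6 h. The animals' age and sex, and whether replicates came from separate animals or cultures, are not stated, so the spread between libraries may be technical.

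Linker histones bind the nucleosome where DNA enters and leaves it and help fold the nucleosome chain into compact chromatin. The genes Hist1h1a to Hist1h1e encode the replication-dependent subtypes, which are made mainly in S phase and whose usual mRNAs end in a stem-loop in place of a poly(A) tail. H1f0 encodes the replacement subtype H1.0, which accumulates in cells that have left the cell cycle, and H1fx encodes the divergent subtype H1.10 (H1X), and both give polyadenylated mRNAs. Romidepsin inhibits class I histone deacetylases, enzymes that remove acetyl groups from histones, and H1f0 is a gene long known to respond to inhibitors of this kind.

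The members were proposed with the difference between treated and untreated cells already known. Their levels and fold changes are therefore given as a description without a test, and nothing is concluded from their direction. Levels are given as CPM, a gene's count relative to library depth, with edgeR's TMM scaling. A log2 fold change is the coefficient for treatment in edgeR's fit, positive where treated cells were higher. SE is an approximate standard error, the size of the log2 fold change divided by the square root of edgeR's F statistic. Other genes were tested with edgeR's quasi-likelihood test, called at a Benjamini-Hochberg adjusted p under 0.05 over all 12852 genes tested.

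Total counts per library ranged from 12996892 to 23176949. In each library, 1 read of a gene corresponded to 0.0483 to 0.0826 CPM. Treated replicate 3 stood apart from the other treated libraries. Its log2 CPM correlated at a mean r of 0.944 with the untreated libraries and 0.918 with the other treated ones, whereas treated replicates 1, 2 and 4 had 0.816 to 0.900 with untreated and 0.936 to 0.956 with treated libraries. Of 15 MDSC markers, all were tested and 1 was called lower, the G-CSF receptor gene Csf3r, beside 16.2% of all genes tested. Csf3r was near the threshold (adjusted p = 0.0439, edgeR), with treated replicates 1 to 4 at 7.05, 10.9, 143 and 61.0 CPM. Whether its call holds in other settings was not checked. Lyz2, the most abundant of the 15 markers at means of 32297 (untreated) and 19349 CPM (treated), was not called (adjusted p = 0.105, edgeR). Every treated library was nonetheless below every untreated one for Lyz2. The median log2 fold change of the 15 markers was −1.17, against 0.0057 over all genes tested. The summed level of these markers was 41349 to 49120 CPM in untreated and 14501 to 34683 CPM in treated libraries, and the part of this in the H1 levels was not tested. Ly6g, a defining granulocytic marker, was low, at means of 13.1 (untreated) and 5.32 CPM (treated). Fewer cells of a type and less RNA per cell cannot be told apart in such bulk samples.

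Hist1h1a to Hist1h1e lie in the Hist1 cluster on chromosome 13, and H1f0 and H1fx lie alone on chromosomes 15 and 6. On GRCm38, GENCODE M21 places Hist1h1b at 21779883 to 21780625, Hist1h1d at 23553262 to 23560686, Hist1h1e at 23620629 to 23622558, Hist1h1c at 23738808 to 23740367 and Hist1h1a at 23763666 to 23764406. It places H1f0 at 79028450 to 79030504 and H1fx at 87980421 to 87981637. Each of the 7 genes has 1 transcript model with a single exon and no intron. The letters AAACACA, known as the H1 box, were found 112 to 122 bases before the start of Hist1h1b, Hist1h1c, Hist1h1d and Hist1h1e, and CCAAT was found 51 to 56 bases before the start of all 5 cluster genes.

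The following stretches are the 250 bases before the RefSeq start site (GRCm38.p6), printed because the members differ in them while all 7 were higher in treated cells. Capitals mark the H1 box AAACACA, the CCAAT box and the TATA box TATAAA on either strand.
Hist1h1c, chr13:23738557-23738806, plus strand: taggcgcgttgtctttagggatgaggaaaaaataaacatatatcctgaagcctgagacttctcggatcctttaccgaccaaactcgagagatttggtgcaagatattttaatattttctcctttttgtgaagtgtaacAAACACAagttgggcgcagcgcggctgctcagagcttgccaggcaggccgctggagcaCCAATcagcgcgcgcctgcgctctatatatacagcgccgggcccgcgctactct
Hist1h1d, chr13:23554782-23555031, plus strand: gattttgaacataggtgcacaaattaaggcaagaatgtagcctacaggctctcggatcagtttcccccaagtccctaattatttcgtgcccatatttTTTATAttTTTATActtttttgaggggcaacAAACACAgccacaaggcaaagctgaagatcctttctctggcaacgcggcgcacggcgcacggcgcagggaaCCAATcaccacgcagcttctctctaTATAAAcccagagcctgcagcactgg
Hist1h1a, chr13:23763418-23763667, plus strand: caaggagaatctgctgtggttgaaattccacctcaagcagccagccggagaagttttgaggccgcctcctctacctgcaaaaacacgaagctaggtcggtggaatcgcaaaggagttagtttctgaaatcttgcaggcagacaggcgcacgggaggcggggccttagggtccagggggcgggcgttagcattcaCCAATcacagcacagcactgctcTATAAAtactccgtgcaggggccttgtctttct
H1f0, chr15:79027962-79028211, plus strand: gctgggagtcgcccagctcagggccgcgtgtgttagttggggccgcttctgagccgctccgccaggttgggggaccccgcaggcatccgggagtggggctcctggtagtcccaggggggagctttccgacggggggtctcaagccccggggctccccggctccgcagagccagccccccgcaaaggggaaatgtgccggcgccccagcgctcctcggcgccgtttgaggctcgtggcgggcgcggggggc

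AAACACA lay 112 bases before the start in Hist1h1c and 122 bases before it in Hist1h1d, and the Hist1h1a and H1f0 windows held no exact match. TATAAA was found in the forward direction 26 to 33 bases before the start of Hist1h1a, Hist1h1b, Hist1h1d and Hist1h1e. The Hist1h1c window held no exact match. Near the same position its printed stretch has a run of alternating t and a, which the search for the exact letters leaves out. The H1f0 and H1fx windows of 300 bases held none of these 3 motifs and were rich in G and C (75.0% and 77.7%), against 45.7% to 54.3% in the 5 cluster genes and a median of 52.7% over 32851 promoters. Each held 1 GGGCGG, the GC box. This motif was not particular to them, since the windows of Hist1h1a, Hist1h1b and Hist1h1e also held it. Those of Hist1h1c and Hist1h1d did not. The RefSeq start of Hist1h1d lies inside its longer GENCODE model, so its window does too. Searched on both strands in all 32851 windows of the same length, AAACACA was present in 7.18%, TATAAA in 13.6%, CCAAT in 37.4% and GGGCGG in 35.7%. A match of letters is a description and not a bound site.

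The 3′ ends matter here because the libraries were made from poly(A) RNA. The stem-loop, searched as the stem GGCTCT, the loop TTTN and the returning stem AGAGCC in direct succession on the sense strand of the GENCODE transcripts, was present in 36 of 55450 genes (0.065%), 34 of which have histone symbols. Hist1h1c, Hist1h1d and Hist1h1e held 1 match each, 24, 31 and 40 bases after the stop codon. The sites are printed with the stem-loop in capitals, on the gene's strand, because all 3 models continue past it.
Hist1h1c, chr13:23739507-23739532, plus strand: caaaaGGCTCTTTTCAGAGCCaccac
Hist1h1d, chr13:23555782-23555807, plus strand: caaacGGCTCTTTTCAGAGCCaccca
Hist1h1e, chr13:23621777-23621802, minus strand: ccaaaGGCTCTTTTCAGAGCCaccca

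Past the stem-loop, these models ran on for 840, 4884 and 1153 bases. The model of Hist1h1c ended 20 bases after an AATAAA, the common poly(A) signal, as did those of H1f0 (16 bases) and H1fx (15 bases). The model of Hist1h1a stopped 1 base short of completing the stem-loop, with 15 of its bases, and that of Hist1h1b stopped at the stop codon. Reads from any longer tail of these 2 genes would fall outside the annotated exon in this release. The annotation release that the authors counted with is not given in the sources used here. Counts per gene also do not show which 3′ end a read came from.

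**Figure D1:**
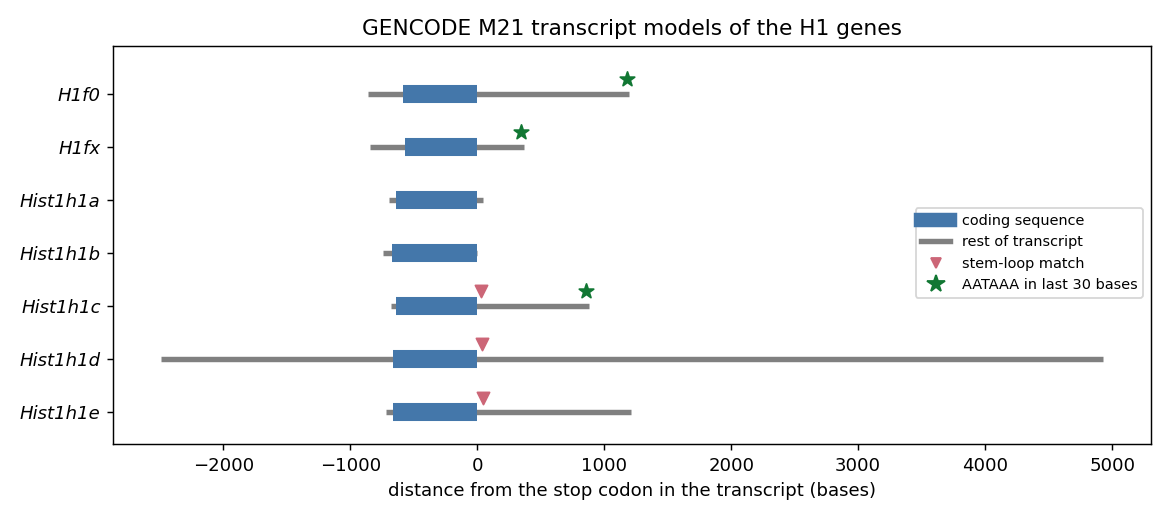
Transcript models of the 7 H1 genes in GENCODE M21, aligned at the stop codon, with the distance from it in bases on the x axis. Blue bars are coding sequence, grey lines the rest of the transcript, triangles stem-loop matches and stars an AATAAA in the last 30 bases; the models of Hist1h1c, Hist1h1d and Hist1h1e run past the stem-loop by 840, 4884 and 1153 bases.

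All 7 H1 genes were higher in treated cells, with every treated library above every untreated one. The same held for 18.7% of the 12852 genes tested. Of the 7, 6 passed the filter on low counts and Hist1h1a did not. The filter asked for 0.692 CPM, scaled by library size without TMM, in as many libraries as a group holds. Hist1h1b, Hist1h1d and Hist1h1e reached this cutoff in no untreated library, so they passed only through the treated group and had to be higher there. H1fx, with 8, 15, 8 and 11 reads in untreated replicates 1 to 4, missed it in some untreated libraries. It too needed treated libraries to pass. Ranked by fold change among the 12852 genes, Hist1h1b was at place 7, Hist1h1d at 8, H1fx at 20, Hist1h1c at 29, Hist1h1e at 60 and H1f0 at 181.

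**Figure D2:**
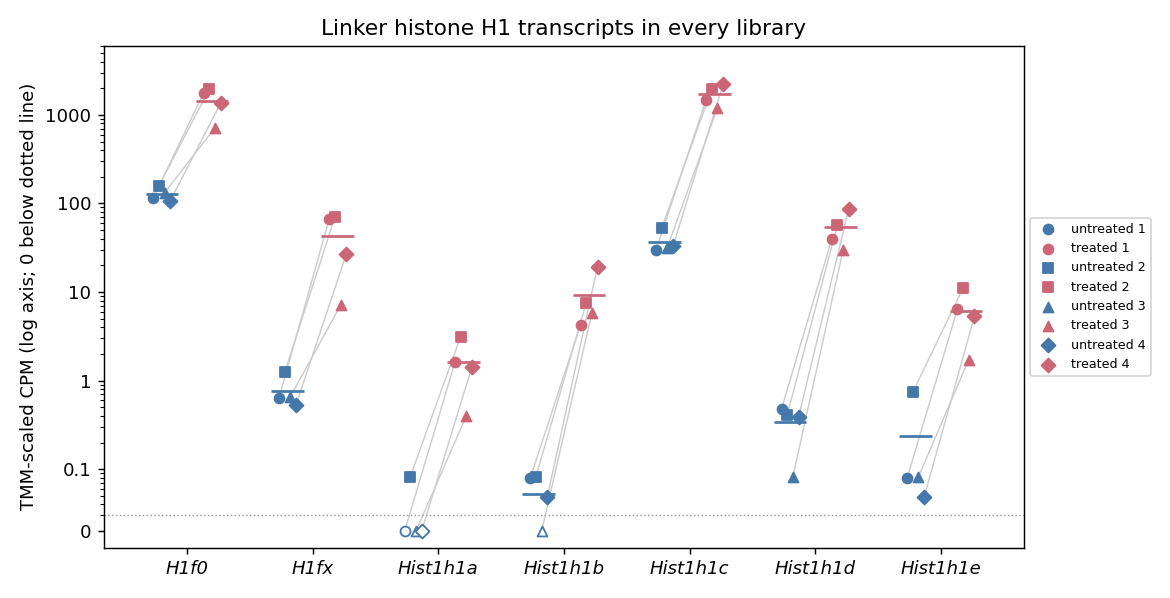
TMM-scaled CPM of each H1 gene on a log axis, with 1 point per library, grey lines joining libraries of the same replicate number and horizontal bars at group means. Open points below the dotted line are libraries with 0 counts; the untreated mean of Hist1h1a, 0.0206 CPM, is not drawn. In every gene the 4 treated points (red) lie above the 4 untreated points (blue).

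Among the replication-dependent genes, Hist1h1c, encoding H1.2, was the most abundant. Untreated replicates 1 to 4 held 29.6, 52.4, 31.7 and 32.7 CPM of Hist1h1c, and treated replicates 1 to 4 held 1487, 1963, 1199.8 and 2216 CPM. The groups did not overlap, the lowest treated library was replicate 3, and the highest was replicate 4. Group means were 36.6 ± 10.6 and 1716 ± 458 CPM (SD, n = 4), a log2 fold change of 5.55 ± 0.34 (SE). Within pairs of the same number the ratio was 50.3, 37.4, 37.8 and 67.8, so that pair 3 did not fall below pair 2.

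Hist1h1d, encoding H1.3, was nearly silent in untreated cells, at 0.480, 0.413, 0.0822 and 0.387 CPM, which rest on 1 to 8 reads per library. Treated replicates 1 to 4 held 39.8, 57.1, 29.9 and 87.2 CPM. Replicate 3 was again the lowest and replicate 4 the highest treated library, and the groups lay far apart. The log2 fold change was 7.24 ± 0.51 (SE).

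Hist1h1b, encoding H1.5, had 1, 1, 0 and 1 reads in the untreated libraries. In treated replicates 1 to 4 it had 74, 118, 87 and 298 reads, or 4.24, 7.49, 5.76 and 19.3 CPM. Treated replicate 4 was above the other 3 treated libraries, and replicate 1 was the lowest. From the summed counts, 3 against 577, the level was 173 times higher in treated cells, with an exact 95% interval of 59.0 to 843 that covers counting error only. The fitted log2 fold change of 7.25 depends on the prior count and was 6.59 without treated replicate 4.

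Hist1h1e, encoding H1.4, had 1, 9, 1 and 1 reads in untreated replicates 1 to 4, or 0.0799, 0.743, 0.0822 and 0.0483 CPM. Treated replicates 1 to 4 held 6.42, 11.1, 1.72 and 5.31 CPM. Both groups had their highest value in replicate 2, and treated replicate 3 was the lowest treated library. The log2 fold change was 4.73 ± 0.89 (SE), and 6.34 without untreated replicate 2. Its annotated exon overlaps the core histone gene Hist1h2be by 496 bases on the same strand, and 28.4% of the 75-base words of its transcript also occur in transcripts of other genes, so its value is uncertain. For comparison, 12.2% of the words were shared in H1fx, 6.66% in Hist1h1c, 4.49% in H1f0, 1.47% in Hist1h1d, and 0 in Hist1h1a and Hist1h1b.

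Hist1h1a, encoding H1.1, was the least abundant member. A single read was counted in the untreated libraries, in replicate 2. Treated replicates 1 to 4 had 28, 49, 6 and 22 reads, or 1.61, 3.11, 0.397 and 1.42 CPM. Its highest treated library was replicate 2 and its lowest replicate 3. The summed counts, 1 against 105, gave a ratio of 94.7 with an exact 95% interval of 16.6 to 3774, for counting error only.

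H1f0 had the highest level in untreated cells and the smallest fold change of the 6 members that passed the filter. Untreated replicates 1 to 4 held 115, 159, 133 and 107 CPM, and treated replicates 1 to 4 held 1776, 1959, 717 and 1354 CPM. Treated replicate 3 was the lowest treated library but still above the highest untreated one. Group means were 129 ± 22.8 and 1451 ± 551 CPM (SD, n = 4), with a log2 fold change of 3.50 ± 0.35 (SE). Within pairs the ratio was 15.4, 12.3, 5.40 and 12.6. H1f0 shares 163 exonic bases with the antisense transcript Gm49544 on the opposite strand. Whether counting used strand is not stated.

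H1fx held 0.640, 1.24, 0.658 and 0.532 CPM in untreated replicates 1 to 4 and 67.2, 70.3, 7.08 and 26.7 CPM in treated replicates 1 to 4. Treated replicates 1 and 2 were close to each other, and replicate 3 held the lowest treated level. The log2 fold change was 5.82 ± 0.76 (SE), and the ratio within pairs was 105, 56.8, 10.8 and 50.1. H1fx shares 213 exonic bases with the antisense gene Gm5577 on the opposite strand, so reads of the pair could not be separated without strand.

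The treated libraries ordered the members in different ways. Relative to the mean of treated replicates 1 and 2, treated replicate 4 held 3.29 times the Hist1h1b level, 1.80 times the Hist1h1d level and 1.28 times the Hist1h1c level. For the other members the same ratio was 0.725 (H1f0), 0.605 (Hist1h1e), 0.603 (Hist1h1a) and 0.388 (H1fx). Treated replicate 3 divided them in the same way. It held 0.981, 0.696 and 0.617 times the mean of replicates 1 and 2 for Hist1h1b, Hist1h1c and Hist1h1d. For H1f0, Hist1h1e, Hist1h1a and H1fx it held 0.384, 0.196, 0.168 and 0.103 times that mean. Treated replicate 3 was the lowest treated library for every member except Hist1h1b, whereas replicate 4 was the highest for 3 members and below replicates 1 and 2 for the other 4. The coefficient of variation among treated libraries was lowest for Hist1h1c (26.7%) and highest for Hist1h1b (74.5%). This division was seen in the values and not tested, and it includes Hist1h1a, with 6 to 49 reads.

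**Figure D3:**
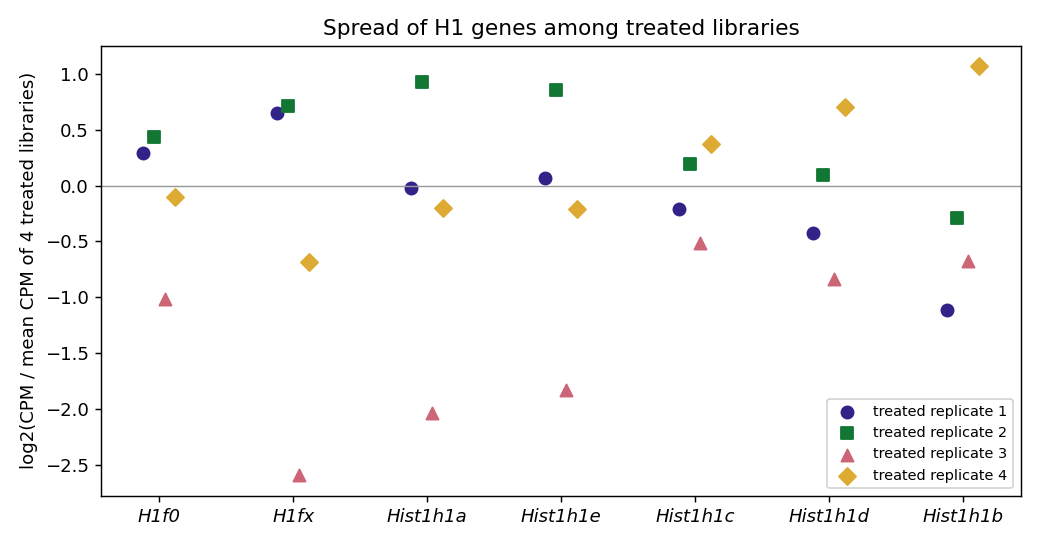
Log2 ratio of each treated library to the mean CPM of the 4 treated libraries (y axis) for the 7 H1 genes (x axis), 1 point per library. Treated replicate 4 (diamonds) is the highest library for Hist1h1c, Hist1h1d and Hist1h1b and below replicates 1 and 2 for H1f0, H1fx, Hist1h1a and Hist1h1e.

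The summed level of the 7 genes, which weighs them by read number, was 146, 214, 165 and 141 CPM in untreated replicates 1 to 4 and 3381, 4071, 1961.5 and 3710.2 CPM in treated replicates 1 to 4. Means were 167 ± 33.2 and 3281 ± 924 CPM (SD, n = 4), a ratio of 19.7. Treated replicate 3 held the smallest treated sum, and without it the log2 difference was 4.46, against 4.27 with all libraries. H1f0 and Hist1h1c were the largest terms of the sum in every library.

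Compared per length, Hist1h1c made up a larger and H1f0 a smaller share of the H1 sum in treated cells. With GENCODE exon lengths, H1f0 made up 72.3 ± 3.09% of the summed CPM per kb in untreated and 37.2 ± 7.66% in treated cells, and Hist1h1c made up 26.7 ± 2.83% and 59.8 ± 8.49% (SD, n = 4). The ranges did not overlap, with Hist1h1c at 23.8% to 29.8% in untreated and 50.5% to 67.6% in treated libraries. The share depended on the length used, because GENCODE gives Hist1h1c 1560 bases and RefSeq 725. With RefSeq lengths Hist1h1c made up 46.3 ± 3.48% and 76.0 ± 5.94%. No other member exceeded 2.94% of the sum in any library with either set of lengths.

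**Figure D4:**
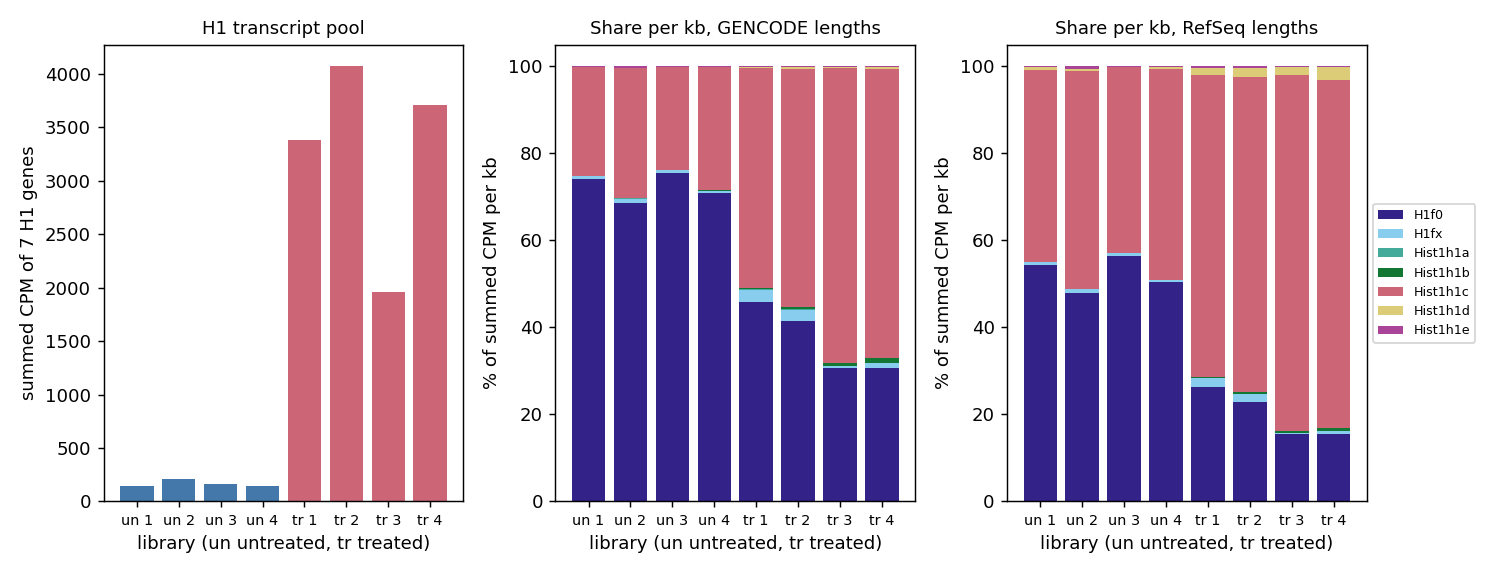
Left, summed TMM-scaled CPM of the 7 H1 genes in each library (y axis from 0). Middle and right, the share of each gene in the summed CPM per kb with GENCODE and with RefSeq lengths, in percent. The share of Hist1h1c (pink) is larger in each of the 4 treated libraries (tr) than in each of the 4 untreated ones (un) with both lengths.

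In untreated cells the order of mean levels per kb, with GENCODE lengths, was H1f0 (62.6 ± 11.1), Hist1h1c (23.5 ± 6.82), H1fx (0.630 ± 0.263), Hist1h1e, Hist1h1b, Hist1h1d and Hist1h1a (CPM per kb, SD, n = 4). The first 3 were separated from each next gene with no overlap between libraries, whereas the last 4, at 0.124 CPM per kb and below, overlapped their neighbours. With RefSeq lengths H1f0 (56.1 ± 9.94) and Hist1h1c (50.5 ± 14.7) overlapped. In treated cells Hist1h1c (1100.2 ± 294) and H1f0 (706 ± 268) led and overlapped with GENCODE lengths, and did not overlap with RefSeq lengths (2367 ± 632 and 633 ± 240.4). Hist1h1d depended most on the length: its model has 7425 bases in GENCODE and 776 in RefSeq, and its treated level was 7.21 ± 3.38 or 69.0 ± 32.4 CPM per kb.

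Likeness to Hist1h1c and to H1f0 was measured over the 8 libraries as the root-mean-square difference of log2 CPM, each gene taken relative to its own untreated mean with a pseudocount of 0.5, among 8826 genes. Among the genes nearest to Hist1h1c were Dact3 (0.58), Pfn2 (0.91), Crip2 (0.95) and Fgfrl1 (1.196). Untreated means of Dact3, Pfn2 and Crip2 were 0.482, 0.637 and 0.286 CPM, below the filter's cutoff of 0.692 CPM. Their treated means were 50.8, 27.3 and 23.0 CPM. Dact3, Pfn2 and Crip2 therefore needed treated libraries to pass, so their likeness to a gene known to be higher there carries little weight. Fgfrl1 was above the cutoff, at an untreated mean of 1.21 CPM. Nearest to H1f0 were Serpini1 (0.13), Tmem132a (0.22), Paqr3 (0.29), Pacsin3 (0.33) and Tnfrsf22 (0.33). Serpini1 went from 1.66 ± 0.283 to 24.0 ± 8.68 CPM. Between members, Hist1h1c was closest to Hist1h1d (0.42), and the distance between Hist1h1c and H1f0 was 1.54. The pseudocount compresses genes near 0, so a low gene can lie close to one with a smaller fold change.

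Genes next to the members were tested to see whether higher levels were shared along the chromosome. The nearest tested gene on each side, and any overlapping one, gave 14 genes that are no members. Of these, 7 reached the filter's cutoff in no untreated library and could enter the test only by being higher in treated cells: Gm49544, Zfp184 and 5 core histone genes. Of the other 7, 2 were called higher (Gcat and Hmces) and 1 lower, beside 20.3% higher and 16.2% lower of all genes tested. Gcat, at 0.483 CPM in untreated replicate 4, missed the cutoff in some untreated libraries and needed treated ones to pass. Its call is therefore not like for like with the share over all genes. All 5 tested neighbours of Hist1h1d and Hist1h1e were core histone genes. Gcat, which encodes a threonine-breakdown enzyme and lies 370 bases past H1f0, was called higher (adjusted p = 0.00629, edgeR), with 1.01 ± 0.521 CPM in untreated cells, 5.98 ± 2.77 CPM in treated cells and a log2 fold change of 2.57 ± 0.51. Gm49544, antisense to H1f0, was at 0.316 ± 0.158 and 2.36 ± 0.526 CPM. It shares 163 exonic bases with the far more abundant H1f0, and without a stated strand setting its reads cannot be told apart from those of H1f0. On the other side of H1f0, Triobp, an actin-binding protein gene 22581 bases away, fell by 0.69 ± 0.15 (adjusted p = 0.00885, edgeR), a call that was lost with housekeeping scaling.

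Hmces, which encodes a DNA damage sensor and lies 43792 bases from H1fx, was called higher (1.43 ± 0.21, adjusted p = 0.00232, edgeR), at 12.0 ± 2.67 and 32.3 ± 4.76 CPM. Rab7, on the other side at 17469 bases, was at 591 ± 107 and 428 ± 52.8 CPM and did not pass (adjusted p = 0.103, edgeR), though it passed as lower with DESeq2. Beside Hist1h1c, Hfe, an iron-regulating gene 27954 bases away, was at 89.4 ± 17.5 and 39.1 ± 29.1 CPM and did not pass (adjusted p = 0.0927, edgeR). Hfe passed as lower in the fit that blocks on replicate number (0.0162), with DESeq2 and without treated replicate 3 (0.0150), the library with the highest treated Hfe level (74.99 CPM, the others 10.8 to 49.8). Beside Hist1h1b, the zinc finger gene Zfp184 was at 0.198 ± 0.161 and 8.21 ± 3.77 CPM, and Zkscan8 on its other side did not pass (log2 fold change 0.35 ± 0.25) except without untreated replicate 4 (adjusted p = 0.0370, edgeR). Carmil1, the next tested gene past Hist1h1c and Hist1h1a, was at 5.15 ± 1.46 and 3.81 ± 1.32 CPM and was not called.

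**Figure D5:**
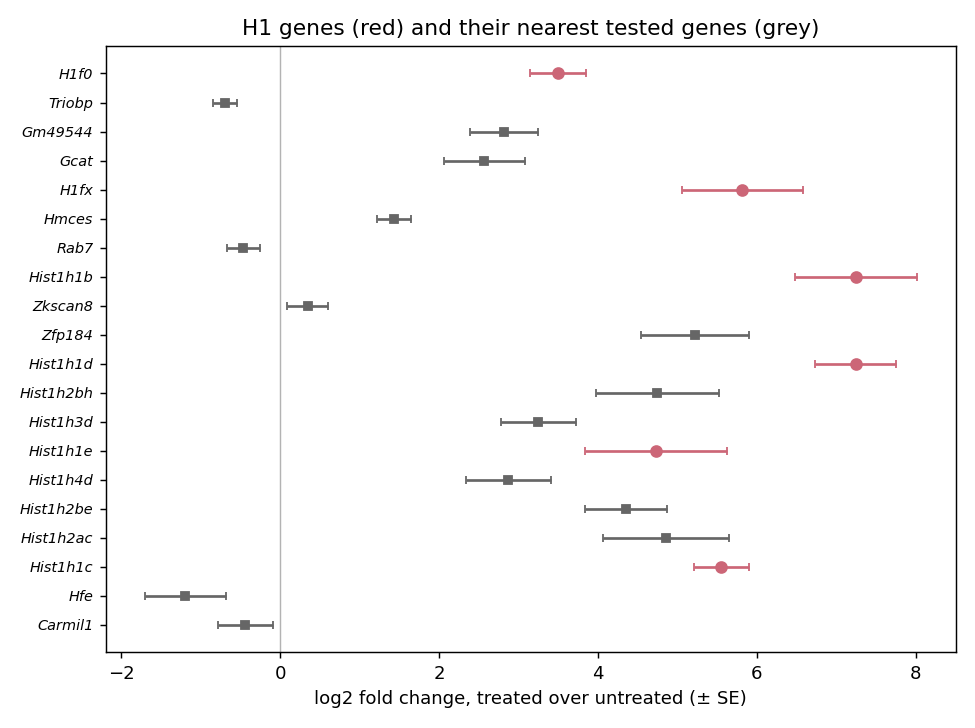
Log2 fold change of treated over untreated cells, with its SE (x axis), for the 6 H1 genes that passed the count filter (red circles) and for their nearest tested genes (grey squares), grouped by member from top to bottom. Neighbours range from −1.19 (Hfe) to 5.22 (Zfp184), and all 6 H1 genes lie at 3.50 or above.

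Other linker histone genes gave few reads. Of the germline genes Hist1h1t, H1fnt, H1foo and Hils1, 2 were in the count table and neither passed the filter. Hist1h1t, the testis subtype, had 9 reads in the treated libraries together and 0 in the untreated ones, and H1foo, the oocyte subtype, had 1 read in each group. Of 35 core and variant histone genes in the table, 19 passed the filter. Of these, 5 reached its cutoff in no untreated library (Hist1h2ac, Hist1h2be, Hist1h2bh, Hist1h3d and Hist1h4d). Of the other 14, 7 were called higher, beside 20.3% of all genes tested. These shares are not like for like, because the 14 include genes that also needed treated libraries to pass. An example is Hist3h2ba, at means of 0.268 (untreated) and 5.72 CPM (treated). Hist1h2be, which overlaps Hist1h1e on the same strand, was at 0.415 ± 0.159 and 8.37 ± 3.52 CPM. Hist1h2bc, a replication-dependent H2B gene, rose by 2.69 ± 0.36 and Hist1h4i, an H4 gene, by 2.54 ± 0.30. H2afy, encoding the variant macroH2A1, was not called (−0.45 ± 0.21) except as lower without treated replicate 3. The summed level of the core histone list was 1183 to 1626 CPM in untreated and 2442 to 3791 CPM in treated libraries. Within this sum the variant histone gene H3f3b alone had means of 595 (untreated) and 2309 CPM (treated). The sum therefore does not describe the other genes of the list.

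Of 19 tested chaperones and binding partners of H1 (of 20 listed), 2 rose and 5 fell (10.5% and 26.3%), against 20.3% and 16.2% of all genes, with a median log2 fold change of −0.03. Hmgn2 and Hmga1, high-mobility-group proteins that compete with H1 for nucleosomes, fell from 77.5 ± 20.4 to 30.2 ± 11.46 CPM (−1.36 ± 0.30, adjusted p = 0.00956, edgeR) and from 94.6 ± 9.63 to 50.7 ± 11.0 CPM (adjusted p = 0.00652). Kpnb1, the importin beta that carries H1 into the nucleus together with Ipo7, fell by 0.76 ± 0.17. Npm1, a nucleolar chaperone and the most abundant gene of the list that was not called, was at 392 ± 108 and 385 ± 58.6 CPM. With housekeeping scaling all 3 calls for Hmgn2, Hmga1 and Kpnb1 were lost, Npm1 passed as higher, and 10 of the list rose and 0 fell. With library size scaling the call for Kpnb1 was also lost. Hmgn1 and Cbx5, encoding the heterochromatin protein HP1 alpha, rose by 0.82 ± 0.25 and 0.76 ± 0.26, but Hmgn1 was no longer called without untreated replicate 3 or 4 or treated replicate 1, 2 or 4 (adjusted p up to 0.0872), nor Cbx5 without untreated replicate 1, 2 or 3 or treated replicate 1, 2 or 4 (adjusted p up to 0.123).

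Of 20 enzymes that modify H1, 1 rose and 3 fell (5% and 15%), beside 20.3% and 16.2% of all genes. Padi4, which converts arginine of H1 to citrulline, fell by 1.82 ± 0.46 (log2, adjusted p = 0.0163, edgeR), at 122 ± 16.5 and 34.7 ± 23.5 CPM, and was not called with no count filter (adjusted p = 0.0528). Ehmt2 (G9a), a lysine methyltransferase, fell from 269 ± 13.2 to 149.7 ± 24.0 CPM, and Kdm4a, a lysine demethylase, from 93.5 ± 15.8 to 49.0 ± 5.19 CPM. Both were not called with housekeeping scaling. Kdm4b, of the same demethylase family, rose by 0.77 ± 0.24 and was not called without untreated replicate 1, 2 or 3 or treated replicate 1, 2 or 4 (adjusted p up to 0.0889). Huwe1, a ubiquitin ligase, was not called, at 199 ± 70.2 and 188 ± 37.6 CPM. Without treated replicate 3, 2 of the list rose and 5 fell, and in the fit that blocks on replicate number 2 rose and 3 fell.

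Of 20 tested genes for transcription and 3′ processing of histone mRNA, 4 rose and 3 fell (20% and 15%), close to the 20.3% and 16.2% of all genes, with a median log2 fold change of 0.38. Npat, the coactivator of replication-dependent histone genes, rose by 0.89 ± 0.26 (log2, adjusted p = 0.0264, edgeR), at 19.6 ± 7.16 and 36.3 ± 6.43 CPM, a call lost without untreated replicate 1, 2 or 3 or treated replicate 2 or 4 (adjusted p up to 0.0726). Ncbp1, a cap-binding subunit, rose from 46.2 ± 7.94 to 95.02 ± 31.5 CPM, a call lost without untreated replicate 3 (adjusted p = 0.0531, edgeR). Cpsf3, the nuclease that cuts histone and other pre-mRNAs, fell from 71.6 ± 5.66 to 45.1 ± 2.0 CPM (adjusted p = 0.00544, edgeR), a call lost with library size or housekeeping scaling. Srrt and Sympk, which act in histone mRNA 3′ processing, fell by 0.73 ± 0.21 and rose by 0.58 ± 0.16. The call for Srrt was lost without untreated replicate 1 or 2 or treated replicate 1 or 2, and with library size or housekeeping scaling. The call for Sympk was lost without untreated replicate 1, 2 or 3 or treated replicate 1, 2 or 4, and with no count filter. Cpsf1, a cleavage factor subunit, was not called (0.34 ± 0.17) except with library size or housekeeping scaling. Library size scaling gave 10 higher and 0 lower genes of this list, and without treated replicate 3 there were 8 higher and 3 lower.

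Of 22 tested S-phase genes, 3 rose and 4 fell (13.6% and 18.2%), against 20.3% and 16.2% of all genes. Rrm2, the ribonucleotide reductase subunit that limits DNA synthesis, fell by 1.39 ± 0.26 (log2, adjusted p = 0.00506, edgeR), at 31.1 ± 11.3 and 11.8 ± 1.28 CPM, and the proliferation marker Mki67 fell from 184 ± 61.3 to 75.4 ± 19.1 CPM, the latter not with housekeeping scaling. Chaf1b, a subunit of the replication-coupled chromatin assembly factor, rose by 1.60 ± 0.30 (log2, adjusted p = 0.00548, edgeR), at 17.3 ± 5.10 and 52.3 ± 16.7 CPM. Pcna, the sliding clamp of replication, rose from 131 ± 17.3 to 223 ± 47.7 CPM, a call lost without untreated replicate 2 (adjusted p = 0.0501, edgeR). Tk1, thymidine kinase, fell by 1.61 ± 0.45, a call lost without untreated replicate 1 or 2 or treated replicate 1 or 4 and with housekeeping scaling. Top2a, a topoisomerase, was not called, at 110.4 ± 36.6 and 96.2 ± 34.5 CPM. Housekeeping scaling gave 10 higher and 1 lower gene.

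Markers of other cell types differed between the groups as well, and their part in the H1 levels was not tested. Over all genes tested, 20.3% were called higher and 16.2% lower, the shares to set beside the counts of these lists. Of 7 tested B cell markers 4 fell. The summed level of that list was 266 to 930.3 CPM in untreated and 33.04 to 449 CPM in treated libraries. T and NK cell markers summed to 4.74 to 24.9 and 2.81 to 5.91 CPM, with 1 of 3 tested lower. Erythroid markers summed to 2.98 CPM or below in every library, and only Epor was tested and called higher. Epor was at 0.0826 to 0.822 CPM in untreated libraries and needed treated ones to pass the filter, so its direction carries little weight. Megakaryocyte and mast cell markers summed to 369 to 879.9 and 363 to 815 CPM, with 2 of 7 lower. Stromal and tumour epithelial markers summed to 12.0 to 181 and 23.7 to 187 CPM, with 0 of 6 called. Untreated replicate 1 also stood apart for Cdh1, at 174 CPM, with the other untreated libraries at 4.74 to 5.62 CPM. No listed marker in the table was at 0 in all libraries.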

How the data were processed

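Raw counts per gene in 8 libraries were used as deposited by the authors. Per the submitters' processing notes, reads were aligned with STAR 2.5.2a to GRCm38 (mm10). For the counting tool, its annotation and its strand setting, nothing is stated. Symbols for 26881 of 26930 identifiers, exon lengths and transcripts came from GENCODE M21, and promoters from RefSeq (GRCm38.p6). Counts were filtered with filterByExpr, scaled by TMM and fitted with edgeR 4.0.16 in R 4.3.3 without a block (quasi-likelihood test, Benjamini-Hochberg adjustment, threshold 0.05), which kept 12852 genes; the fit was tested on simulated counts. Same-numbered libraries deviated together (r = 0.526, 0.218, 0.469 and 0.131, all above 0.1), so the numbers were taken as pairs from the data and a fit with a replicate block was an alternative. Others were DESeq2 1.42.0, other scalings, filters, gene lengths and leaving out each library. Leaving out both libraries of number 3 and the other length settings were chosen after seeing the data. The members and gene lists were chosen with earlier results of these data known. Named list genes and neighbours followed a written rule: for each list, the called members with the smallest p (at most 3 in the more frequent direction and 2 in the opposite one) and the most abundant uncalled one, and the nearest tested gene on each side of a member. Ly6g, Gm49544, Hist3h2ba and H3f3b were named outside it. Intervals cover counting error only. 1 gene near Hist1h1c by likeness is not reported here.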

Additional observations from a re-analysis of the deposited data

Results flagged for a closer look

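In 3 of 16 groups of 4 libraries tested, 1 library stood apart by Dixon's criterion, which chance meets in about 1 of 20 groups of continuous values. That rate does not hold for groups of near-zero counts such as Hist1h1a, where any single read meets the criterion, nor for Hist1h1e, with 1 to 9 reads. All 3 were untreated replicate 2. It held 0.0826 CPM of Hist1h1a, a single read, where the other untreated libraries held 0. It held 52.4 CPM of Hist1h1c, with the others at 29.6 to 32.7 CPM. It held 0.743 CPM of Hist1h1e, with the others at 0.0483 to 0.0822 CPM.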

How the results depend on the processing

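Every H1 gene with a value stayed higher in treated cells under all settings run. Hist1h1a had none in the fit as reported; without a count filter its log2 fold change was 5.94 and with DESeq2 6.20. With a minimum of 10 CPM, Hist1h1a, Hist1h1b and Hist1h1e had none. Library size scaling moved the median log2 fold change of all genes to 0.31 and gave 1368 lower genes, 5 higher chaperones, 3 higher modifying enzymes, and 10 higher and 0 lower histone expression genes. Npm1 (0.27), Huwe1 (0.22) and Top2a (0.11) reversed. Housekeeping scaling moved that median to 0.69 and gave 5704 higher and 624 lower genes (90.1% of calls higher; library size 74.0%). H1f0 then stood at 4.25, Hist1h1c at 6.26, Hist1h1d at 7.92 and the H1 sum at 4.96. List counts, higher and lower, became 10 and 0 (chaperones), 7 and 1 (modifying enzymes), 12 and 0 (histone expression) and 10 and 1 (S phase). Npm1 (0.72), Huwe1 (0.55), Cpsf3 (0.021), Top2a (0.53), H2afy (0.22), Rab7 (0.22) and Carmil1 (0.19) reversed. Without a count filter 2 histone expression genes were higher.

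In the fit that pairs the libraries by a replicate block, H1f0 stood at 3.42, Hist1h1c at 5.55 and the H1 sum at 4.27. In it 2 modifying enzymes were higher, Npm1 was at 0.0033 and Hfe passed as lower. Among the neighbours and list genes followed across settings, no other call changed. Csf3r, Lyz2, Epor and the other cell type markers were not followed. The share of Hist1h1c became 46.3% and 76.0% with RefSeq lengths, and 21.8% in untreated cells with no length correction.

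Leaving out 1 library at a time gave 1793 to 3270 higher genes (without treated replicate 1 and treated replicate 3) and 1187 to 3077 lower genes (without treated replicate 4 and treated replicate 3). Hist1h1b ranged from 6.59 to 7.49 and Hist1h1e from 4.28 to 6.34. List counts, higher then lower, ranged from 0 to 3 and 4 to 6 (chaperones), 0 to 2 and 3 to 5 (modifying enzymes), 0 to 8 and 1 to 3 (histone expression) and 1 to 4 and 2 to 5 (S phase). Npm1 ranged from -0.19 to 0.12 and reversed without untreated replicate 1 or treated replicate 3, and Huwe1 ranged from -0.24 to 0.17 and reversed without untreated replicate 4. The cause of these changes was not tested.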
